A study of Arabidopsis thaliana with 9 samples.

Results

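The genes described here are those of Arabidopsis thaliana whose deposited description contains the word peroxidase and none of ascorbate, glutathione or thioredoxin. There were 46 such genes among the 18861 listed for any tissue. The reference annotation gives the plant peroxidase domain, the mark of the secreted class III family, to 39 of them and not to the other 7, so for those 7 the annotation goes against the name class III peroxidase. Results are given for the 39, and the 7 are described once, near the end.

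Class III peroxidases are heme enzymes that plants secrete into the cell wall and the vacuole. With hydrogen peroxide they oxidise phenolic substrates, which joins monolignols into lignin, links extensins and suberin phenolics and stiffens the wall, and in another cycle they produce reactive oxygen species that loosen the wall or take part in defence. The family is large, many members stand side by side on the chromosomes, and different members act in roots, vascular tissue, stomata and infected leaves.

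RNA was sequenced from 9 libraries in 3 groups of 3 biological replicates. The emf2 callus came from cotyledons of the emf2 mutant (allele emf2-1 per the file headers), which lacks normal function of EMF2, a subunit of Polycomb repressive complex 2 that keeps developmental genes silent. The WT callus came from cotyledons of wild-type Col-0. Both calli grew on callus-inducing Gamborg B5 plates containing an auxin (2,4-dichlorophenoxyacetic acid, 2.2 µM) and a cytokinin (kinetin, 0.46 µM), were kept in the dark after the first week, and were 6 to 8 weeks old. The leaf samples were rosette leaves of wild-type Col-0 plants grown for 1 week on medium and 2 weeks on soil in long days without these hormones. Callus and leaf therefore differ in tissue, hormones, light and age together, which cannot be told apart. Callus and leaf are also mixtures of cell types, in which more cells of a kind and more RNA per cell cannot be told apart. The labels say biological replicate and no more, so p-values measure the spread between these libraries.

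The deposited tables give RPKM (reads per kilobase of gene and per 1e6 reads) for every gene with a group mean above 1 RPKM. A gene not listed for a group therefore averaged at most 1 RPKM there. The values gave back 40.5 to 53.9 M reads per library, and 1 RPKM stood for 54.3 to 159 reads at the median gene, which covers counting error only. Summed RPKM of 6 leaf photosynthesis markers was 4.99 to 12.2 in emf2 callus, 4.99 to 49.0 in WT callus and 41159 to 63642 in leaf, with RBCS3B listed for neither callus. Of 9 genes that mark the founder cells of callus, 9 were listed for emf2 callus, 8 for WT callus and 1 for leaf. Of 6 root hair markers, 2 were listed for emf2 callus, 3 for WT callus and 0 for leaf, with sums of 9.55 to 13.5 RPKM in emf2 callus and 10.5 to 48.4 RPKM in WT callus, the highest in WT callus replicate 2. EMF2 itself had 13.0, 15.5 and 16.3 RPKM in emf2 callus, 7.43, 6.78 and 7.55 RPKM in WT callus and 5.50, 6.07 and 29.6 RPKM in leaf, a transcript level that does not check the mutation. On the second principal component, WT callus replicate 2 (-13.3) lay among the emf2 libraries (-24.0 to -2.56) and away from WT callus replicates 1 and 3 (18.4 and 41.8). Leaf replicate 3 had 1144 RPKM of the defence gene PR1, against 12.7 and 72.7 RPKM in leaf replicates 1 and 2, and leaf replicate 2 had the highest level of 5 heat shock genes.

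Class III peroxidases typically have a histidine near the heme in a short conserved stretch. The residues R, 2 others, F, H, D and C were found in the longest annotated protein of 37 of the 39 genes, and in none of the 7 without the domain. The codons of that stretch are shown for 6 genes on which the results below turn, 5′ to 3′ on the coding strand, read from RefSeq TAIR10.1, with the histidine codon in capitals.
AT5G64100: cgaatgcatttcCACgattgc
AT5G64110: cgtatgcactttCACgattgt
PRX71: agaatgcatttcCACgactgt
Prx37: cgtcttcatttcCACgactgc
AT4G08780: cgtcttcatttcCACgactgc
PRX53: cgccttcattttCATgactgt
The 21 bases were the same in Prx37 and AT4G08780, which are neighbours, and differed among the 3 neighbours AT5G64100, AT5G64110 and PRX71. The predicted proteins of the 39 genes had 315 to 372 residues (median 335), their genes had 1 to 5 coding exons (23 of 39 had 4), and their predicted isoelectric points ran from 4.48 to 9.71.

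More peroxidase genes were listed for callus than for leaf. Of the 39 genes, 37 were listed for emf2 callus, 37 for WT callus and 19 for leaf. The listing fell into a few patterns, with 20 genes listed for both calli and not for leaf, 16 for all 3 groups, and 1 each for WT callus and leaf (PER4), for emf2 callus and leaf (AT4G11290) and for leaf alone (AT3G17070). Over all 18861 listed genes, 9.061% were listed for both calli and not for leaf. The summed level of the 39 genes was 1381, 878 and 1076 RPKM in emf2 callus, 1158, 1153 and 1743 RPKM in WT callus and 336, 400 and 572 RPKM in leaf. The lowest callus library lay above the highest leaf library, and the emf2 and WT callus libraries overlapped.

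**Figure D1:**
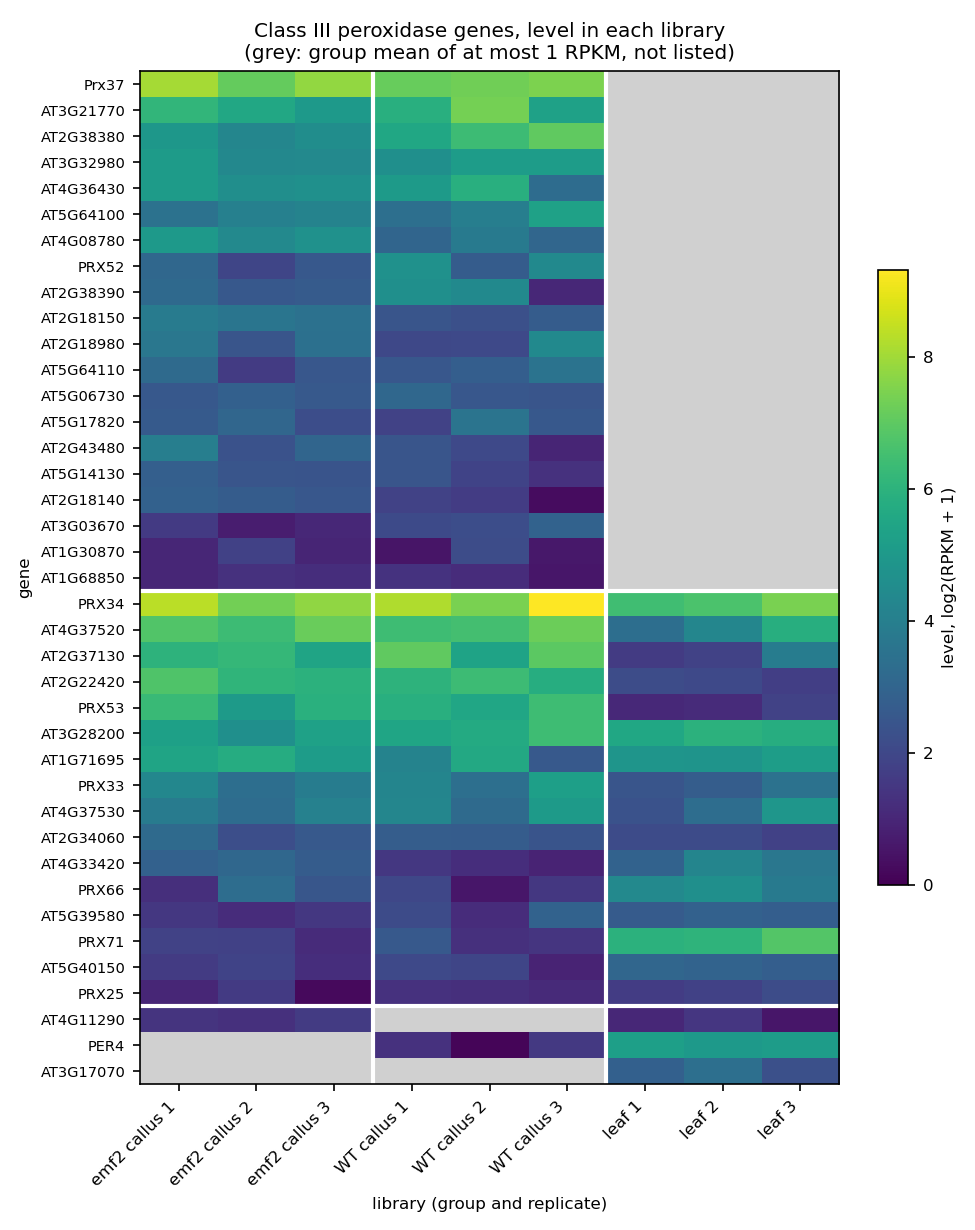
Level of the 39 class III peroxidase genes (rows) in the 9 libraries (columns: 3 emf2 callus, 3 WT callus, 3 leaf) as log2(RPKM + 1), with grey where the group mean was at most 1 RPKM. The upper block holds the 20 genes listed for both calli and not for leaf, the middle block the 16 listed for all 3 groups, and the lowest rows AT4G11290, PER4 and AT3G17070.

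A few genes made up most of this transcript pool. PRX34 (also PRXCB), a source of reactive oxygen in defence and a factor in cell growth, was the highest member in all 3 groups by mean, at 321, 160 and 215 RPKM in emf2 callus, 291, 171 and 635 RPKM in WT callus and 86.4, 101 and 174 RPKM in leaf. By rank it was number 164 of 16646 genes in emf2 callus, 79 of 16703 in WT callus and 1046 of 16694 in leaf. In both calli Prx37 was second, with a mean of 207 ± 65.2 RPKM in emf2 callus and 158 ± 18.24 RPKM in WT callus (SD, n = 3 each), and AT4G37520 came next, with 112 ± 31.6 and 108 ± 35.1 RPKM. In leaf the second place was held by PRX71 (79.7 ± 27.2 RPKM, SD, n = 3), the third by AT3G28200 (54.2 ± 8.36 RPKM) and the fourth by PER4 (34.2 ± 3.13 RPKM). AT3G28200, which has 1 coding exon, had 38.4, 24.0 and 39.7 RPKM in emf2 callus, 44.0, 51.3 and 85.0 RPKM in WT callus and 45.3, 61.9 and 55.4 RPKM in leaf. Its emf2 callus libraries lay below leaf without passing the test (-0.68, adjusted p = 0.0654), and its WT callus libraries overlapped leaf. The emf2 callus difference passed with only emf2 callus and leaf in the fit (adjusted p = 0.0449). The WT callus difference was 0.10 (adjusted p = 0.772), and under quantile normalization it was 0.71 and passed (adjusted p = 0.0407). The 5 highest members of each library held 58.9% to 65.4% of the summed level in emf2 callus, 57.3% to 69.8% in WT callus and 71.9% to 77.1% in leaf.

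**Figure D2:**
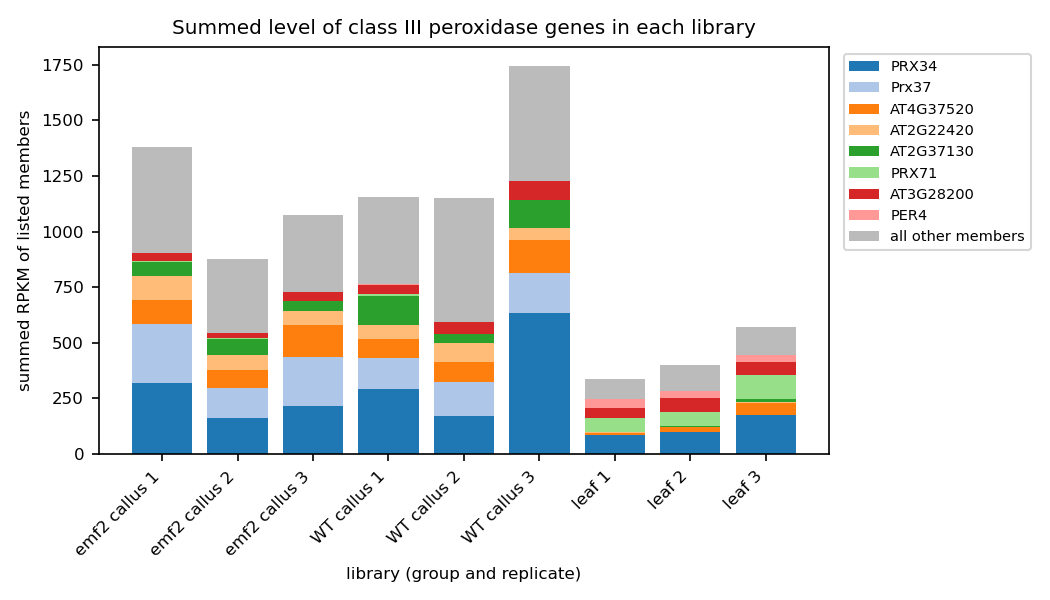
Summed RPKM of the listed class III peroxidase genes in each library (bars, from 0), split into the 4 highest members of each group (colours) and all other members (grey). The callus bars reach 878 to 1743 RPKM, above the leaf bars at 336 to 572 RPKM, and PRX71 and PER4 show as bands in the leaf bars.

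The comparison of WT callus with leaf asks how the peroxidase genes of cultured, hormone-fed tissue differ from those of the organ. A moderated limma test on log2(RPKM + 1) was run over all genes listed for both groups, with Benjamini-Hochberg adjustment and a threshold of 0.05. Of the 17 peroxidase genes listed for both, 6 rose in WT callus, 5 fell and 6 did not pass, and of the 46 genes of the description rule 21 were listed for both, with 7 up and 7 down. Among all 14780 genes tested 65.4% passed (33.6% higher, 31.8% lower), so the share of peroxidase genes that passed was near the background. The libraries did not overlap for 11 of the 17, beside 68.9% of all genes. The median difference was 0.10 over the 17 genes and 0.06 over all genes tested. Another 20 of the 39 were listed for WT callus and not for leaf. Listed for leaf and not for WT callus were 2 genes, AT4G11290 and AT3G17070. For genes listed for only 1 of 2 groups the listing itself sets the direction, so their levels are given with no test.

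Among the genes listed for both callus and leaf, 3 rose most. PRX53, which acts on cell walls in flowers and vascular tissue, had 78.7, 32.5 and 59.7 RPKM in emf2 callus, 57.9, 44.2 and 84.6 RPKM in WT callus and 1.102, 1.24 and 2.57 RPKM in leaf. No callus library came near the leaf range. Its difference from leaf was 4.41 in emf2 callus (SE 0.37, adjusted p = 1.96e-05) and 4.58 in WT callus (SE 0.37, adjusted p = 1.64e-05) on the log2(RPKM + 1) scale, on which differences of low genes are understated. AT2G22420 had 106, 66.6 and 62.3 RPKM in emf2 callus, 63.3, 82.9 and 55.2 RPKM in WT callus and 3.54, 3.14 and 2.27 RPKM in leaf. Its groups did not overlap with leaf, and it rose by 4.29 in emf2 callus (SE 0.25, adjusted p = 2.48e-06) and by 4.09 in WT callus (SE 0.25, adjusted p = 3.25e-06). AT2G37130, annotated for defence against fungi, had 64.0, 72.3 and 42.6 RPKM in emf2 callus, 132, 41.3 and 123 RPKM in WT callus and 2.11, 2.54 and 14.2 RPKM in leaf. All callus libraries were above leaf, and leaf replicate 3, the library with the highest PR1, stood above the other leaves. It rose by 3.43 in emf2 callus (SE 0.66, adjusted p = 0.00207) and by 4.01 in WT callus (SE 0.66, adjusted p = 0.000886), and by 4.16 and 4.74 without leaf replicate 3.

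Other members rose by less. AT4G37520 had 109, 82.3 and 145 RPKM in emf2 callus, 84.5, 90.3 and 148 RPKM in WT callus and 9.32, 18.23 and 55.9 RPKM in leaf, again with leaf replicate 3 the highest leaf, and rose by 2.30 in emf2 callus (SE 0.57, adjusted p = 0.00723) and by 2.23 in WT callus (SE 0.57, adjusted p = 0.00832). PRX34, whose values stand above, and its neighbour PRX33 (PRXCA), which together account for much of the oxidative burst that Arabidopsis mounts against microbes, were higher in WT callus than in leaf with overlapping libraries. PRX33 had 18.8, 9.43 and 14.0 RPKM in emf2 callus, 17.7, 9.52 and 36.8 RPKM in WT callus and 4.54, 5.66 and 10.5 RPKM in leaf. In WT callus the difference from leaf was 1.38 for PRX33 (SE 0.48, adjusted p = 0.0328) and 1.45 for PRX34 (SE 0.50, adjusted p = 0.0313), and in emf2 callus it was 0.96 (adjusted p = 0.110) and 0.95 (adjusted p = 0.126), which did not pass. Under quantile normalization PRX34 passed in emf2 callus (1.88, adjusted p = 0.0104). With only emf2 callus and leaf in the fit, PRX33 passed (adjusted p = 0.0482). The WT callus calls of PRX33 and PRX34 were lost when any of several libraries was left out. Without WT callus replicate 3 the differences were 0.90 and 0.95 (adjusted p = 0.0929 and 0.0874), without WT callus replicate 1 adjusted p was 0.0677 and 0.0615, without leaf replicate 1 it was 0.105 and 0.1000, and without leaf replicate 2 it was 0.0887 and 0.0862. With only WT callus and leaf in the fit it was 0.0562 and 0.0543. AT2G34060 had 8.38, 3.72 and 5.05 RPKM in emf2 callus, 5.79, 5.47 and 4.38 RPKM in WT callus and 3.41, 3.41 and 2.52 RPKM in leaf, with every callus library above leaf. It rose in emf2 callus by 0.66 (SE 0.24, adjusted p = 0.0425) and did not pass in WT callus (0.60, adjusted p = 0.0596). The emf2 callus call of AT2G34060 was lost without emf2 callus replicate 1 (0.38, adjusted p = 0.119), without emf2 callus replicate 3 (adjusted p = 0.0735), without WT callus replicate 1 or 2 (0.0580 and 0.0564) and without leaf replicate 1, 2 or 3 (0.0691, 0.0688 and 0.107). That call was also lost under quantile normalization (adjusted p = 0.0862) and with only emf2 callus and leaf in the fit (0.0690).

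**Figure D3:**
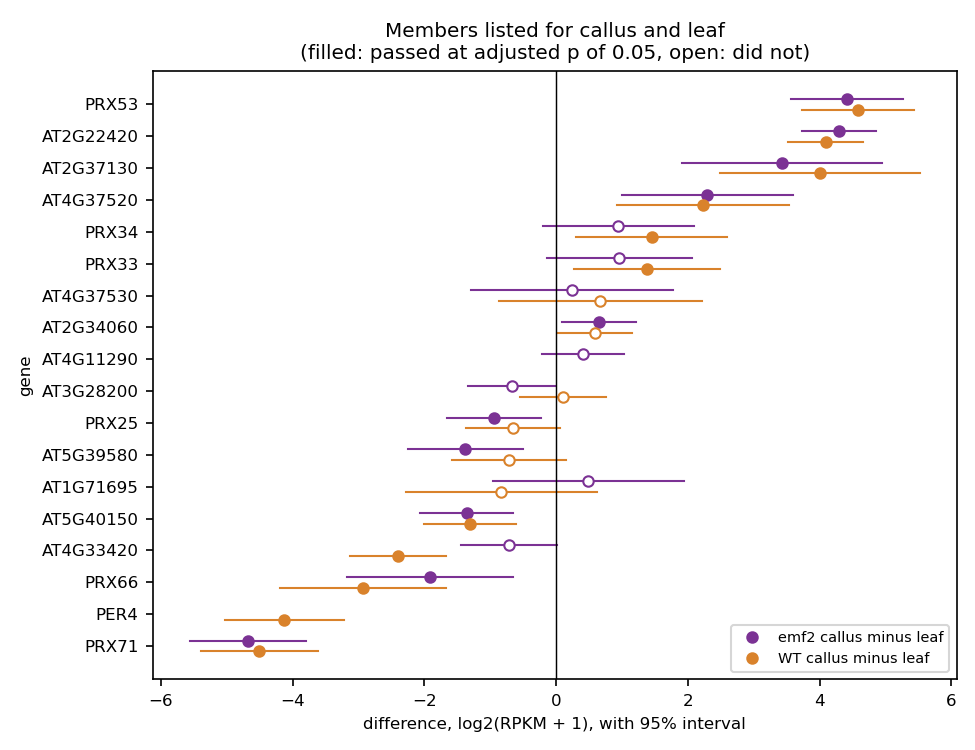
Difference of emf2 callus (purple) and of WT callus (orange) from leaf for the class III peroxidase genes listed for leaf and for callus, on the log2(RPKM + 1) scale, with 95% intervals. Filled points passed at an adjusted p of 0.05, and both contrasts use the same 3 leaf libraries. PRX53, AT2G22420, AT2G37130 and AT4G37520 lie at 2.23 or above and PRX71 at -4.51 and below.

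The 20 genes listed for both calli and not for leaf spanned a wide range of levels. Prx37 led, with 265, 136 and 221 RPKM in emf2 callus and 142, 154 and 178 RPKM in WT callus, against at most 1 RPKM in leaf by mean. It was number 195 of 16646 genes in emf2 callus and 299 of 16703 in WT callus. AT3G21770 had 69.8, 47.0 and 31.7 RPKM in emf2 callus and 58.3, 163 and 39.6 RPKM in WT callus, where replicate 2, the library with the most root hair marker RNA, was the highest, and whether that RNA contributed was not tested. AT2G38380, annotated for responses to zinc and salt, had 29.3, 18.5 and 22.8 RPKM in emf2 callus and 45.7, 82.5 and 132 RPKM in WT callus. AT4G36430, annotated for responses to other organisms, had 33.7, 23.1 and 24.3 RPKM in emf2 callus and 32.4, 58.4 and 8.69 RPKM in WT callus. The range of AT4G36430 in WT callus enclosed that of emf2 callus.

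Further down this group, AT3G32980 had 33.6, 19.5 and 19.9 RPKM in emf2 callus and 23.8, 34.8 and 34.4 RPKM in WT callus, and AT5G64100 had 10.3, 15.6 and 16.8 RPKM in emf2 callus and 9.44, 15.0 and 39.6 RPKM in WT callus. PRX52, which has been linked to lignin of vascular fibres, had 7.74, 2.88 and 4.90 RPKM in emf2 callus and 25.3, 5.54 and 20.4 RPKM in WT callus. The groups of PRX52 overlapped, with the lowest WT callus value in replicate 2. AT2G38390, annotated for the response to salt, had 8.10, 4.91 and 5.35 RPKM in emf2 callus and 23.7, 20.6 and 1.03 RPKM in WT callus, with WT callus replicate 3 far below the other libraries. AT2G18980 had 11.8, 4.53 and 9.74 RPKM in emf2 callus and 3.07, 3.19 and 20.5 RPKM in WT callus, where replicate 3 was the highest. Near the bound of 1 RPKM, AT1G68850 had 1.02, 1.49 and 1.35 RPKM in emf2 callus and 1.55, 1.25 and 0.486 RPKM in WT callus.

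A smaller set of genes was higher in leaf. PRX71, annotated for defence against fungi and the respiratory burst, had 2.57, 2.52 and 1.24 RPKM in emf2 callus, 5.05, 1.42 and 1.74 RPKM in WT callus and 62.0, 66.0 and 111 RPKM in leaf. Leaf lay far above every callus library, and leaf replicate 3 was the highest. The difference from leaf was -4.68 in emf2 callus (SE 0.39, adjusted p = 1.76e-05) and -4.51 in WT callus (SE 0.39, adjusted p = 2.23e-05), and without leaf replicate 3 it was -4.42 and -4.25. PER4 had 1.52, 0.0938 and 1.95 RPKM in WT callus and 37.2, 31.0 and 34.4 RPKM in leaf, and was not listed for emf2 callus. Its difference from leaf was -4.13 in WT callus (SE 0.37, adjusted p = 0.000144).

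PRX66, tied to lignin of vessel cells, had 1.37, 9.17 and 4.69 RPKM in emf2 callus, 2.92, 0.478 and 1.87 RPKM in WT callus and 20.1, 24.2 and 13.1 RPKM in leaf. It fell by 1.92 in emf2 callus (SE 0.55, adjusted p = 0.0146) and by 2.94 in WT callus (SE 0.55, adjusted p = 0.00179), and the emf2 callus call was lost without leaf replicate 2 (adjusted p = 0.0512). AT4G33420 had 6.34, 7.75 and 5.51 RPKM in emf2 callus, 1.86, 1.34 and 0.914 RPKM in WT callus and 6.57, 17.9 and 12.1 RPKM in leaf. WT callus lay below leaf, with a difference of -2.40 (SE 0.32, adjusted p = 0.000263), and emf2 callus overlapped leaf, with a difference of -0.72 that did not pass (adjusted p = 0.0749) unless leaf replicate 1 was left out (-1.07, adjusted p = 0.00729). AT5G40150 had 2.11, 2.68 and 1.34 RPKM in emf2 callus, 3.18, 2.81 and 0.888 RPKM in WT callus and 7.47, 6.77 and 5.89 RPKM in leaf, and fell by 1.36 and 1.30 (adjusted p = 0.00457 and 0.00566 in emf2 and WT callus). AT3G17070, annotated as expressed in guard cells, the cells that open and close stomata, had 6.18, 9.64 and 3.82 RPKM in leaf and was listed for neither callus. In emf2 callus AT5G39580, annotated for defence against fungi, fell by 1.38 (SE 0.38, adjusted p = 0.0120; in WT callus it passed only without WT callus replicate 3, at -1.14) and PRX25 by 0.94 (SE 0.31, adjusted p = 0.0266). The call of PRX25 was lost without emf2 callus replicate 1 or 3 (adjusted p = 0.0584 and 0.0610, the difference being -0.60 without replicate 3) and without leaf replicate 2 or 3 (0.0573 and 0.0756). With only emf2 callus and leaf in the fit, the call of PRX25 was also lost (adjusted p = 0.0515).

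For emf2 callus against leaf, 5 of the 17 peroxidase genes listed for both rose, 5 fell and 7 did not pass, beside 65.3% of all 14693 genes tested (34.1% higher, 31.2% lower). The libraries did not overlap for 11 of the 17, beside 72.1% of all genes. The 46 genes of the description rule gave 6 up and 7 down of 21. The contrast uses the same leaf libraries as the WT callus contrast. The genes listed for leaf and not for emf2 callus were PER4 and AT3G17070. The deposited values were 0.760 to 0.851 times those that library totals give in callus and 1.40 to 1.71 times in leaf. Under scaling by library total instead of the authors' scaling, the median difference of all genes from leaf moved to 0.91 in emf2 callus, against 0.08, and to 0.86 in WT callus, against 0.06. The peroxidase calls were then 8 up and 1 down in emf2 callus and 8 up and 4 down in WT callus, while calls over all genes were 79.7% and 78.7% up instead of 52.2% and 51.4%. PRX71 still fell in both contrasts under that scaling, by 3.80 and by 3.65, and PRX53 still rose, by 5.09 and 5.23, whereas AT5G40150 no longer passed in either (-0.57 and -0.54), nor did PRX66, AT5G39580 and PRX25 in emf2 callus. Newly passing were PRX33, PRX34 and AT4G11290 in emf2 callus (1.81, 1.93 and 0.93) and AT2G34060 and AT3G28200 in WT callus (1.33 and 1.04). The emf2 callus difference of AT4G33420 from leaf changed sign without passing (0.16, adjusted p = 0.651).

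The comparison of emf2 callus with WT callus asks what the loss of a Polycomb subunit changes in the same culture. None of the 36 peroxidase genes listed for both calli passed in the limma test (0 of 40 by the description rule), beside 0.0989% of all 16185 genes, or 16 genes (0.0680% higher, 0.0309% lower). At an unadjusted p under 0.05, 8 of the 36 passed, 5 higher and 3 lower in emf2 callus, beside 4.57% of all genes higher and 4.43% lower. The groups did not overlap for 7 of the 36 genes, close to the 18.6% of all genes tested. The median difference was -0.04 over the 36 genes and 0.00 over all genes. AT4G11290 was listed for emf2 callus and not for WT callus and PER4 the other way round.

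The genes with the lowest p, none of which passed after adjustment, included 1 pair of neighbours on the chromosomes, AT2G18150 and AT2G18140. AT2G18150, annotated for the response to nematodes, had 13.5, 11.4 and 10.2 RPKM in emf2 callus and 4.47, 3.84 and 5.55 RPKM in WT callus. Its neighbour AT2G18140 had 6.46, 5.49 and 4.77 RPKM in emf2 callus and 2.57, 2.15 and 0.236 RPKM in WT callus. For both, every emf2 library lay above every WT callus library, with differences of 1.18 (95% interval 0.77 to 1.59, adjusted p = 0.0870) and 1.44 (0.45 to 2.44, adjusted p = 0.366). AT4G08780, the neighbour of Prx37, had 30.9, 19.9 and 25.0 RPKM in emf2 callus and 7.20, 13.3 and 7.50 RPKM in WT callus. The AT4G08780 libraries did not overlap, with a difference of 1.37 (0.72 to 2.03, adjusted p = 0.182), whereas Prx37 itself overlapped, with a difference of 0.34 (-0.34 to 1.02, adjusted p = 0.786). AT4G33420, whose values stand above, differed by 1.68 without overlap (0.95 to 2.40, adjusted p = 0.119). AT1G71695 had 42.0, 53.2 and 34.4 RPKM in emf2 callus, 16.9, 48.1 and 5.04 RPKM in WT callus and 28.2, 27.4 and 35.0 RPKM in leaf, so its calli overlapped. Against leaf it passed in WT callus only without WT callus replicate 2, at -1.58 (adjusted p = 0.0150).

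In the other direction, AT2G38380 was lower in every emf2 library than in any WT callus library, with a difference of -1.73 (-2.69 to -0.77, adjusted p = 0.248). AT3G03670 had 2.01, 0.680 and 1.04 RPKM in emf2 callus and 3.23, 3.55 and 6.55 RPKM in WT callus, a difference of -1.27 without overlap (-2.02 to -0.53, adjusted p = 0.283). AT3G28200 did not overlap either, with a difference of -0.78 (-1.44 to -0.12, adjusted p = 0.478). For most members the interval was wide. For PRX34 it ran from -1.65 to 0.64, for AT2G38390 from -2.88 to 1.76, for PRX53 from -1.01 to 0.69 and for AT2G22420 from -0.36 to 0.76, so a 2-fold lower level was within the interval for PRX34, AT2G38390 and PRX53, a 2-fold higher level for AT2G38390 alone of these 4, and neither for AT2G22420. With WT callus replicate 2 and leaf replicate 3 both left out, a choice made after seeing the data, AT2G18150 and AT4G08780 passed with differences of 1.08 and 1.63 (adjusted p = 0.0430 and 0.0288).

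**Figure D4:**
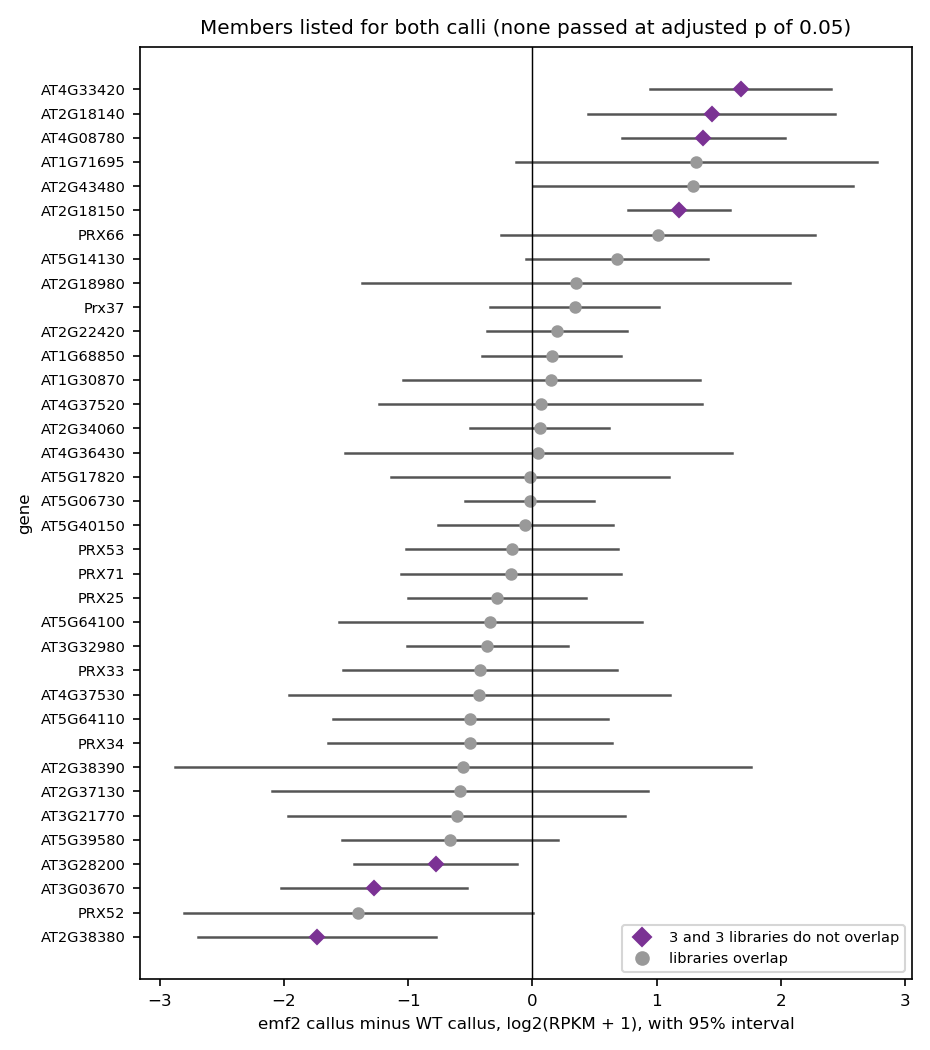
Difference of emf2 callus from WT callus for the 36 class III peroxidase genes listed for both, on the log2(RPKM + 1) scale, with 95% intervals, ordered by size. Diamonds mark the 7 genes whose 3 and 3 libraries did not overlap, and no gene passed at an adjusted p of 0.05.

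The levels of peroxidase genes varied more between libraries of the same group than those of most genes. The standard deviation of log2(RPKM + 1) over the 3 libraries had a median of 0.41 for the 37 members in emf2 callus, against 0.14 for all genes there, 0.72 for the 37 in WT callus, against 0.19, and 0.43 for the 19 in leaf, against 0.26. All 37 members exceeded the median of all genes in emf2 callus, 34 of 37 did in WT callus and 12 of 19 in leaf. In emf2 callus, replicate 1 was the highest library for 21 of the 37 members and replicate 2 the lowest for 20, whereas over all genes these libraries were highest and lowest for 34.8% and 36.5%. In leaf, replicate 3 was the highest for 9 of 19 members, against 34.8% of all genes. AT4G37530, annotated for the salt response, followed this in leaf with 4.04, 8.96 and 28.8 RPKM, and had 13.8, 8.84 and 16.1 RPKM in emf2 callus and 18.19, 8.33 and 32.8 RPKM in WT callus. Its difference between WT callus and leaf was 0.67 and did not pass (adjusted p = 0.400). Without leaf replicate 3 it was 1.36 (adjusted p = 0.0586), and with WT callus replicate 2 left out as well it was 1.85 and passed (adjusted p = 0.00932).

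Neighbouring genes of the family could be set side by side. Of the 39 genes, 15 stood in 7 stretches of neighbours no more than 10000 bases apart. On chromosome 5, AT5G64100 (25650567 to 25652247), AT5G64110 (25654074 to 25656067) and PRX71 (25659257 to 25661007) all lie on the minus strand, with coding sequences 60.9% to 68.7% identical. AT5G64110 had 8.34, 2.09 and 4.79 RPKM in emf2 callus and 4.80, 5.90 and 10.8 RPKM in WT callus. It and AT5G64100 were listed for callus and not for leaf, while PRX71, the last of the 3, was the second highest of the 39 genes in leaf. Prx37 (chromosome 4, 5598037 to 5600398, minus strand) and AT4G08780 (5604105 to 5608290, plus strand) face away from each other, 3706 bases apart, and their coding sequences were 93.8% identical. Both were callus genes, and the mean of Prx37 was the higher in each callus. PRX53 and AT5G06730, 919 bases apart and 80.8% identical, were both listed for callus, where AT5G06730 had 4.95, 6.26 and 5.00 RPKM in emf2 callus and 7.69, 4.75 and 4.42 RPKM in WT callus. For leaf PRX53 was listed, at 1.102 to 2.57 RPKM, and AT5G06730 was not. Near-identical neighbours can share reads. Of the coding windows of 50 bases, 10.6% were the same in Prx37 and AT4G08780, 9.77% of those of PRX34 were found in PRX33, 8.82% in AT4G37520 and AT4G37530 and 9.02% of those of AT2G18140 in AT2G18150, so the split of reads between them is uncertain. The annotated spans of 7 members overlap another gene, among them AT4G33420 by 78, PRX66 by 118, AT4G08780 by 143 and AT5G40150 by 288 bases, and the kit did not keep strand.

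**Figure D5:**
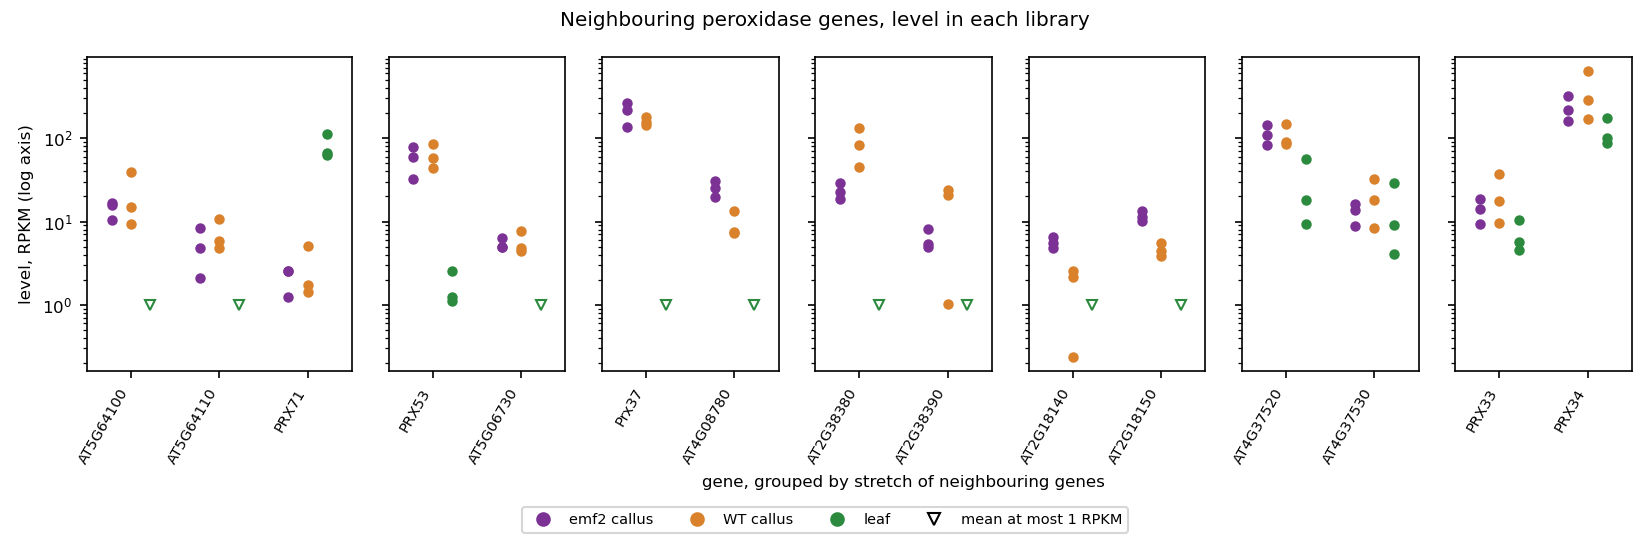
Level of neighbouring class III peroxidase genes in each library (points, RPKM on a log axis), for emf2 callus, WT callus and leaf, with 1 panel for each stretch of neighbours. Open triangles at 1 RPKM mark groups that do not list the gene. PRX71 is the gene whose leaf points (62.0 to 111 RPKM) lie far above its callus points.

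Since AT5G64100 and PRX71 stand in the same stretch and were high in different tissues, the 250 bases before their annotated starts are shown, 5′ to 3′ on the gene's strand, from RefSeq TAIR10.1. Both strands were searched for the W-box bound by WRKY factors (TTGACC or TTGACT) and the AC element of lignin genes (ACCTACC or ACCAACC), and capitals mark the matches. The windows are chr5:25652248-25652497 and chr5:25661008-25661257, both on the minus strand.
AT5G64100: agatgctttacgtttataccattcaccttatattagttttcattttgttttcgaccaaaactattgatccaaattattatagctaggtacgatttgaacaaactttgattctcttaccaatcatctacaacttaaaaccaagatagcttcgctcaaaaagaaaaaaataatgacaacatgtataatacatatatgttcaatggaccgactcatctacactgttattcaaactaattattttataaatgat
PRX71: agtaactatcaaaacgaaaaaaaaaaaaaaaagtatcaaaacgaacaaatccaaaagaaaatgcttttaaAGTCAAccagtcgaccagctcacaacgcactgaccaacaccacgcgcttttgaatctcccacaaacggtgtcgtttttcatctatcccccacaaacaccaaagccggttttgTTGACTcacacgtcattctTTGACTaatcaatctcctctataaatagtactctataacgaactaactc
The PRX71 window held 3 W-box matches, at -180 on the opposite strand and at -68 and -49 on the same strand. The AT5G64100 window held neither motif, and the PRX71 window held no AC element. A W-box was present in 13 of the 39 member windows and in 8 of the 20 genes listed for callus and not for leaf (40%), beside 28.4% of the windows of 27438 protein-coding genes. An AC element was present in 2 of the 39, beside 3.79%. The auxin response element TGTCTC was present in 2 of the 39 and in 0 of the 20, beside 10.9%, and the G-box CACGTG in 1 of the 39, beside 6.49%. The motifs do not overlap in these windows, and a match describes letters, not a bound site.

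Gene lists for what peroxidases act on or with were counted the same way. They were drawn up from general knowledge, with earlier results of these data known. Of 16 monolignol synthesis genes, which make the substrates of lignin, 6 rose and 1 fell of 14 listed for both in emf2 callus against leaf, and 6 rose and 3 fell of 15 in WT callus, beside 34.1% and 31.2% of all genes in emf2 callus and 33.6% and 31.8% in WT callus. CAD5 rose by 3.04 and 2.88, 4CL2 by 3.15 and 2.88, and CAD4 fell by 3.81 and 3.41 in emf2 and WT callus. Of 17 laccases, the other lignin-polymerising oxidases, 4 were listed for both in each contrast. In emf2 callus 1 rose and 1 fell, and in WT callus 1 rose and 2 fell. LAC8 rose (1.11 and 2.18) and LAC4 fell (-1.91 and -1.89) in emf2 and WT callus. LAC11 also fell in WT callus (-1.82, adjusted p = 0.0417) and was not listed for emf2 callus. Of 15 suberin genes, 3 were listed for both in each contrast, with KCS2 and ABCG20 up (3.08 and 1.83 in emf2 callus, 1.86 and 1.52 in WT callus) and KCS20 down (-1.44 in emf2 callus and -2.06 in WT callus). Another 6 were listed for emf2 callus and not leaf, and 7 for WT callus and not leaf. Of 10 NADPH oxidases, 2 were listed for both in each contrast. Of these, 2 fell in emf2 callus and 1 in WT callus, and 0 rose. In the other direction, RBOHE was listed for both calli and not for leaf, and RBOHB and RBOHC for WT callus alone, all at low levels (0.477 to 2.80 RPKM). RBOHD, the main NADPH oxidase that supplies hydrogen peroxide precursors in leaf, had 43.0, 32.7 and 45.9 RPKM in emf2 callus, 32.3, 33.6 and 40.8 RPKM in WT callus and 205, 201 and 235 RPKM in leaf. RBOHD fell by 2.38 and by 2.56 (adjusted p = 7.99e-06 and 5.78e-06). Of 13 catalase, superoxide dismutase and ascorbate peroxidase genes, 12 were tested, of which 8 fell and 1 rose in emf2 callus and 7 fell and 1 rose in WT callus, beside 31.2% and 31.8% of all genes that fell, with CAT2 lowest at -6.01 and -5.98.

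Of 10 extensin and leucine-rich repeat extensin genes, wall proteins that peroxidases link, 6 were listed for both in each contrast with leaf. In emf2 callus 1 rose and 3 fell, and in WT callus 2 rose and 2 fell. The other 4, EXT2, EXT6, EXT10 and LRX1, were listed for both calli and not for leaf, at 0.182 to 14.7 RPKM. EXT1 rose by 4.36 and 4.90 and LRX3 fell by 3.82 and 3.08 in emf2 and WT callus. Of 13 secondary wall and xylem genes, 3 of 5 listed for both fell in emf2 callus and 2 of 4 in WT callus, and none rose. XCP2 fell by 2.71 and 3.30, and MYB63 was listed for both calli and not for leaf. Over all genes 34.1% rose and 31.2% fell in emf2 callus, and 33.6% and 31.8% in WT callus. Of 10 Casparian strip genes 8 were listed for neither WT callus nor leaf, MYB36 was listed for both calli and not for leaf, and LOTR1 differed from leaf by -0.26 in emf2 callus (adjusted p = 0.242) and fell by 1.05 in WT callus (adjusted p = 0.00118). UPB1, a bHLH factor known to repress peroxidase genes in the root tip, had 46.4, 77.3 and 54.8 RPKM in emf2 callus, 41.6, 78.1 and 18.21 RPKM in WT callus and 2.27, 2.54 and 4.27 RPKM in leaf. UPB1 thus had no overlap between callus and leaf, and rose by 3.91 and 3.35 (adjusted p = 0.000153 and 0.000370). Between emf2 and WT callus no gene listed for both passed in any of these lists.

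Lists of peroxidase genes by role were also counted, with earlier results known, and most overlap the genes described above. Of 14 genes tied to lignin or the Casparian strip, 7 were listed for both WT callus and leaf, with PRX53 and AT2G22420 up and PRX71, PER4, PRX66 and AT4G33420 down, and 5 were listed for neither. In emf2 callus 2 of 7 rose and 3 fell. Over all genes tested 33.6% rose and 31.8% fell in WT callus, and 34.1% and 31.2% in emf2 callus. Of 7 genes tied to root hairs, AT5G64100 and AT1G30870 were listed for both calli and not for leaf and AT5G39580 fell in emf2 callus, and 4 were in neither. Of 3 genes named as UPB1 targets, AT5G17820 was listed for both calli and not for leaf, with 5.21, 7.49 and 3.61 RPKM in emf2 callus and 2.59, 10.8 and 4.95 RPKM in WT callus. AT4G11290 had 1.63, 1.44 and 2.05 RPKM in emf2 callus and 1.04, 1.81 and 0.469 RPKM in leaf. Of 5 genes tied to seed, anther and growth roles, Prx37 and AT2G18980 were listed for both calli and not for leaf.

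Of the 7 genes without the plant peroxidase domain, OCP3, a homeodomain regulator of defence named for overexpressing a cationic peroxidase, had 4.89, 7.99 and 5.15 RPKM in emf2 callus, 6.29, 6.26 and 5.40 RPKM in WT callus and 25.4, 23.5 and 13.2 RPKM in leaf, and fell by 1.60 and 1.58. AT3G61770, AT3G21610, AT1G24350, AT3G12685 and AT1G67600 are annotated as related to acid phosphatase and vanadium-dependent haloperoxidase, and AT3G01950 as a peroxidase with a domain of unknown function. AT3G61770 fell in both contrasts with leaf (-1.49 and -1.57), AT3G21610 rose (0.68 and 0.63), AT3G12685 and AT3G01950 were listed for leaf alone and AT1G67600 for emf2 callus alone. Of the 74 genes that the annotation gives the domain, 34 were listed for no tissue, among them PER64, PRX72, RCI3, RHS18 and RHS19. PRXR1 (AT4G21960) has the domain but not the word in its description, and was listed at 761, 745 and 571 RPKM in emf2 callus, 323, 705 and 190 RPKM in WT callus and 537, 521 and 484 RPKM in leaf, above PRX34 by mean in emf2 callus, in WT callus and in leaf.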

How the data were processed

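Poly(A) RNA libraries (TruSeq RNA V2 kit, Illumina HiSeq, per the labels' protocols) were processed by the authors with FastQC, cutadapt and TopHat on TAIR10, per the submitters' processing notes, without versions. The counter is not given in the sources used here. Per the file headers, the deposited values are RPKM in 1 table per group, for genes with a mean above 1 RPKM. Whole reads were recovered from the RPKM values for 18856 of 18861 genes (relative tolerance 5e-13) and served only for depth and library totals.

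Differences were tested on log2(RPKM + 1) with a moderated linear model (limma 3.58.1, R 4.3.3) with 1 coefficient per group. Each gene was fitted on the libraries of the groups that list it, which is all 9 only for genes listed for all groups. Tests were two-sided, Benjamini-Hochberg adjusted over all genes listed for both groups. Genes listed for 1 group were compared with 1 RPKM taken as fixed, which the report does not use, since the listing sets the direction. Members and gene lists were chosen with earlier results of these data known. Members named are the 8 largest rises and falls per contrast, the 6 highest listed for 1 group, the 8 highest per group and the role lists, and AT2G18150, AT2G18140, AT3G03670, AT4G37530, AT2G34060 and AT5G06730 were partly named after their values were seen. Positions and sequences come from RefSeq TAIR10.1 (Biopython 1.88), and the tables give no coordinates. Alternatives were other pseudocounts, filters and scalings, a replicate block and leaving out libraries.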

Additional observations from a re-analysis of the deposited data

How the results depend on the processing

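The counts of peroxidase genes called, over the 46 genes of the description rule, stayed within 1.5 times of the reported 13 (emf2 callus against leaf), 14 (WT callus against leaf) and 0 (emf2 against WT callus) under the pseudocounts of 0.1 and 5, a mean of at least 5 RPKM, quantile normalization, library-total scaling, the 2 compared groups alone and no trend, except that 2 genes were called between emf2 and WT callus with WT callus replicate 2 and leaf replicate 3 both left out, a setting added after seeing the data. Leaving out 1 library gave 10 to 14, 12 to 16 and 0 to 0 calls. Over the 39 genes with the domain, the count for emf2 callus against leaf was 6 with a mean of at least 5 RPKM, which leaves 12 to test, against 10 of 17. For genes listed for 1 group alone the listing fixes the direction, so a test against the bound of 1 RPKM cannot decide anything. Its counts are left out, also those with the absent group given the error of 3 libraries, a setting added after seeing the data. AT1G24350 changed direction under library-total scaling, to 0.49 in emf2 callus and 0.50 in WT callus against leaf, and the median of all genes moved by a similar amount. For members listed for both compared groups, over the 3 contrasts, 63 differences kept direction and side of the threshold under library-total scaling. Another 5 newly passed, 5 no longer passed, 7 changed sign without passing, and the 2 of AT1G24350 passed in the opposite direction. Under quantile normalization 78 kept both, 3 newly passed and 1 no longer passed. A replicate block gave 14, 16 and 0 calls, and the deviations of same-numbered libraries correlated by -0.21 to 0.61, positively for the replicate 3 libraries in each contrast (0.11 to 0.61) and not above 0.1 for every pair, so the numbers were not taken to pair the libraries. Depth limits members near 1 RPKM, and 3 libraries a group limit the emf2 comparison.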
